A study of Mus musculus with 18 samples.

Results

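The ubiquitin-specific protease (USP) genes of the mouse were followed through meiosis and spermiogenesis in RNA bound to polysomes and in RNA of free ribonucleoprotein particles (RNPs). A member is a protein-coding gene of the GENCODE vM1 annotation (build mm9) whose symbol is Usp followed by a number and optional letters. The rule gave 51 genes of 22380 annotated protein-coding genes. Of these, 45 had a value in at least 1 library, 34 had one in all 18 libraries, and 44 were among the 14665 genes tested. The libraries came from adult wild-type mice labelled C57BL/6 (C57BL/6 J in the methods). Cells of 3 stages, pachytene spermatocytes, then round and then elongating spermatids, were each split into a polysome and an RNP fraction by sucrose gradient centrifugation, with 3 libraries for each of the 6 groups. No group carried an allele or a drug treatment of the animals, and the buffers held cycloheximide, which holds ribosomes on mRNA. The cells of pooled testes were separated by sedimentation and their purity was judged by morphology, so that each library is a mixture enriched in the named cell. The paper estimated the purity to be lowest for the elongating spermatids. Nothing states that the 3 libraries of a group came from separate cell preparations, so p-values measure only the spread between these libraries, which may be technical.

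USP enzymes are the largest family of deubiquitinases. They are cysteine proteases that cut ubiquitin from substrate proteins or shorten ubiquitin chains, and through this set the stability, location or activity of their substrates. In the testis, ubiquitin marks histones H2A and H2B around meiosis and during the exchange of histones for protamines, and spermatids discard much of their cytoplasm. An mRNA stored in RNPs is held back from translation, and in spermatids, whose transcription ceases as the nucleus condenses, storage allows a protein to be made later.

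The catalytic cysteine lies in a short block, the Cys box, that most members share. Its core was searched in the translated coding sequence, on the coding strand, as glycine or glutamine, asparagine, threonine or serine, cysteine, and tyrosine, phenylalanine or tryptophan in this order. The core was found in 37 of 50 members read (74%) and in 10 of 22544 other gene symbols with a coding sequence (0.0444%), and a match describes the letters only. The 27 bases around it are shown for the members on which the results turn, read from the transcripts of the annotation, with the codon of the matched cysteine in capitals.

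Usp12: aattttgggaataccTGCtactgcaac
Usp46: aattttggaaacacaTGCtactgtaac
Usp25: aatgtcggcaacaccTGCtggtttagt
Usp28: aatgttggcaacacaTGTtggttcagt
Usp50: aacctgggcaacaccTGCtacatgaac
Usp16: aatttggggaatactTGTttcttcaat
Usp42: aatttgggcaacaccTGTtttgccaat
Usp30: aatctggggaataccTGCttcatgaac

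Usp12 and Usp46 are paralogs, as are Usp25 and Usp28, and each pair differed at 4 of these 27 bases. Between Usp12 and Usp46 the differences were G9A, T12C, C15A and C24T, and between Usp25 and Usp28 they were C6T, C15A, C18T and T24C, with the first gene's base before the position and positions counted from 1 at the 5′ end. Usp12 lies at chr5:147546385-147606582 on the minus strand, Usp46 at chr5:74394487-74464455 on the minus strand, Usp25 at chr16:77014314-77117024 on the plus strand and Usp28 at chr9:48793490-48850622 on the plus strand of mm9.

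Values are FPKM (fragments per kilobase of transcript, scaled to the number of mapped fragments of the library) of separately assembled libraries, not scaled to each other, and a transcript that was not assembled counts as 0. Ubb, a ubiquitin gene that every cell uses, was also listed at 0 in all libraries, so a value of 0 does not show that an RNA was absent. Polysome libraries lay above RNP libraries as a whole, with a median log2 difference over all genes tested of 1.01 at the pachytene, 0.65 at the round and 0.71 at the elongating stage. Across genes, which are not independent replicates, libraries of a group correlated with an r of 0.653 to 0.823 in pachytene spermatocytes and 0.844 to 0.881 in elongating spermatids. In round spermatids library 2 stood apart, with an r of 0.500 and 0.621 to the other polysome libraries and 0.479 and 0.579 to the other RNP libraries. The 12 elongating spermatid markers summed to between 156 and 3272 FPKM in pachytene, 219 and 5707 in round and 7766 and 33836 in elongating libraries. In pachytene libraries 1, 2 and 3 the sums were 1798, 169 and 619 FPKM in polysomes and 3272, 156 and 930 FPKM in RNPs. Library 1 was highest in both fractions, and the part of spermatid RNA in the pachytene values of members was not tested. The 16 Sertoli cell markers, of which 14 had a value, summed to 1328 and 1757 FPKM in pachytene polysome libraries 2 and 3 and 1719 in pachytene RNP library 2, and to between 103 and 358 in the other pachytene libraries. They summed to 2804 in round polysome library 2 and 1367 in round RNP library 2, with 50.7 to 203 in the other round libraries, and to between 31.4 and 57.4 in elongating libraries. Sox9, a defining Sertoli gene, was at 0 in all elongating libraries, at 12.7 FPKM in round polysome library 2 and at up to 7.995 FPKM in pachytene libraries. The 10 pachytene spermatocyte markers summed to 3128, 3168 and 1909 FPKM in pachytene polysomes and to 984, 920 and 911 FPKM in elongating polysomes. In RNPs they summed to 866, 881 and 263 FPKM in pachytene libraries and to 502, 532 and 640 FPKM in elongating libraries. The comparisons were also run without both round libraries numbered 2, and each pachytene library was left out in turn. In bulk libraries such as these, fewer cells of a type and less RNA per cell cannot be told apart.

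Usp1, Usp47, Usp8 and Usp7 were the most abundant members per length. For levels between genes, the FPKM of each assembled transcript was weighted by its length and divided by the longest annotated spliced length, which gives less weight to fragments (length-weighted FPKM, a scale chosen after the data were seen). On this scale Usp1, which removes ubiquitin from PCNA and FANCD2, averaged 167 over the 18 libraries, with a range of 27.4 to 344. Usp47, a regulator of DNA polymerase beta, averaged 135 and ranged from 19.5 to 300.1. Usp8, which acts on receptors at endosomes, averaged 80.7, and Usp7, which acts on MDM2, p53 and histones, averaged 78.9. The ranges of these 4 genes overlapped widely. Usp15, Usp44, Usp32, Usp2, Usp4 and Usp34 followed with means between 67.8 and 39.7. Usp34, a very long gene with 80 exons, ranked first by plain summed FPKM with a mean of 307.5, and its mRNA was assembled as 3 to 9 transcripts per library, each counted in full. By the same sum Usp8 averaged 157.4 FPKM and Usp1 135.5 FPKM. The length-weighted scale gives more weight to a transcript assembled longer than the annotated length, so the order depends on the scale. At the low end, Usp18 had a value in 6 libraries and Usp43 in 1 library. The median length-weighted level over libraries was under 5 for 17 of the 45 members with a value.

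**Figure D1:**
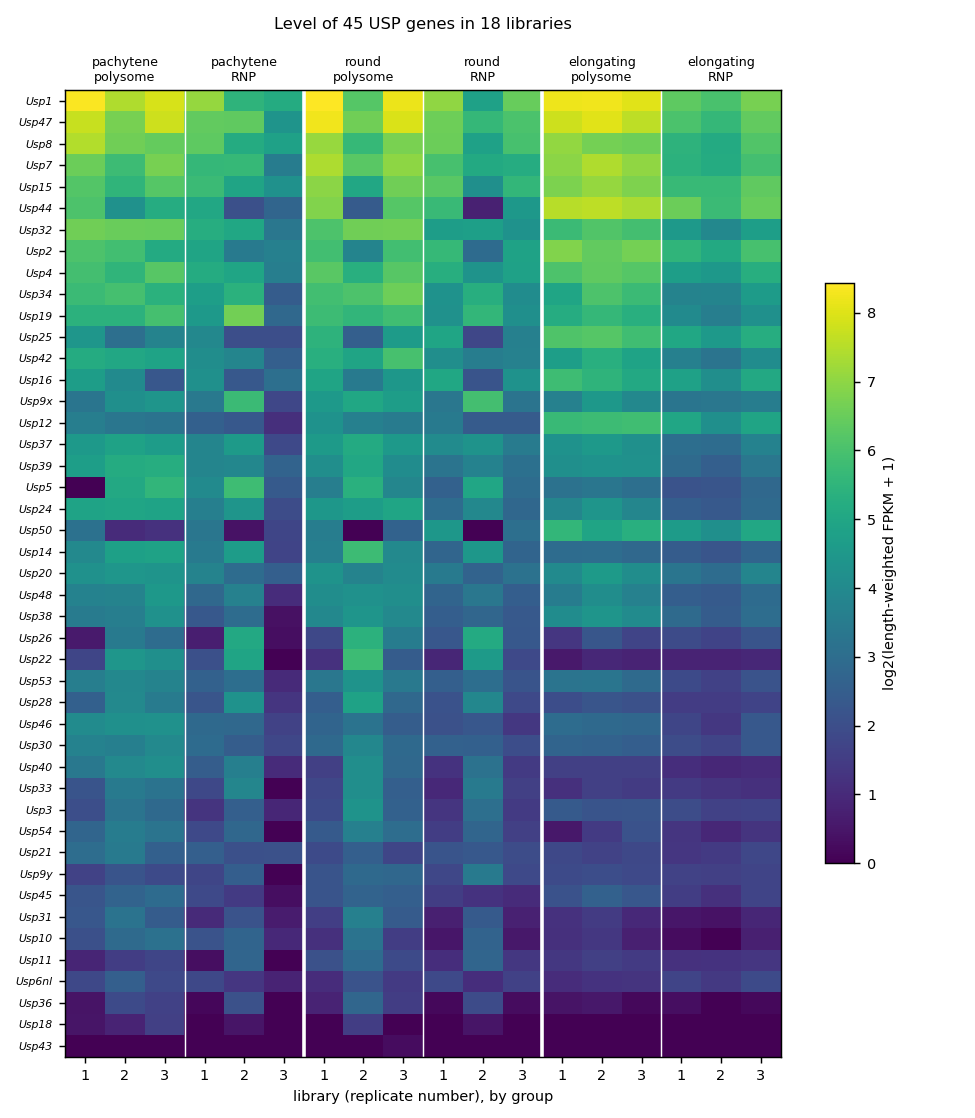
Level of the 45 USP genes with a value in each of the 18 libraries, as the log2 of length-weighted FPKM plus 1 (colour); genes run down the map in the order of their mean and libraries run across it by group. Usp1 and Usp47 head the map, Usp12, Usp25, Usp44 and Usp50 are brightest in elongating columns, and the round columns numbered 2 differ from their neighbours for many genes.

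Usp12 and Usp25 were the members called between pachytene and elongating polysomes, both higher in the elongating libraries, and neither was called in RNPs. Usp12 is an H2A and H2B deubiquitinase that needs WD-repeat proteins for activity, and Usp25 trims ubiquitin chains and is also known in muscle and in immune signalling. Usp12 had 51.8, 52.9 and 43.4 FPKM in elongating polysomes, against 10.5, 9.58 and 8.70 FPKM in pachytene polysomes. The groups did not overlap, and the difference was 2.25 on the log2(FPKM + 1) scale (SE 0.48, limma adjusted p = 0.0156). In RNPs Usp12 had 59.0, 36.3 and 33.0 FPKM in elongating spermatids, against 10.4, 5.35 and 15.6 FPKM in pachytene spermatocytes, a difference of 1.99 (SE 0.48, limma adjusted p = 0.062). The round polysome libraries held 16.3, 12.3 and 21.2 FPKM, so that most of the increase lay between the round and the elongating stage. The elongating value exceeded the round value by 1.54 in polysomes (limma adjusted p = 0.166) and by 1.92 in RNPs (limma adjusted p = 0.221). Usp12 was called in polysomes under 11 of 13 settings of the analysis (other scalings, filters, fits and gene values), and in RNPs under 5 of 13. Without any of 5 of the 6 polysome libraries the difference lay between 2.19 and 2.34 and its adjusted p between 0.0547 and 0.0651, above the threshold of 0.05. Without pachytene polysome library 1 the adjusted p was 0.0325. The Sertoli marker sum was 325, 1328 and 1757 FPKM in the 3 pachytene polysome libraries, and its part in the Usp12 difference was not tested.

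Usp25 had 181, 184 and 110.5 FPKM in elongating polysomes, against 20.4, 9.06 and 22.5 FPKM in pachytene polysomes. The groups were far apart, by 3.18 on the log2 scale (SE 0.82, limma adjusted p = 0.0356). In RNPs Usp25 had 61.0, 45.1 and 66.4 FPKM in elongating spermatids, against 27.4, 6.73 and 3.66 FPKM in pachytene spermatocytes, again without overlap (log2 difference 2.52, SE 0.82, limma adjusted p = 0.151). Round polysomes gave 73.1, 5.25 and 39.1 FPKM, and the low value was that of library 2. Usp25 was called in polysomes under 10 of 13 settings. Leaving out each of the 6 polysome libraries in turn gave differences of 2.79 to 3.42, with adjusted p-values between 0.0508 and 0.146, so each of them is needed for the call. Transcripts with an annotated intron chain held 4.67% of the FPKM of Usp25, and counted alone they gave a difference of -2.40 (limma adjusted p = 0.204). The result therefore rests on chains that the annotation lacks, the most frequent of which had 5 introns and was found in 12 libraries.

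Of the 44 members tested, these 2 were called in polysomes of elongating against pachytene cells, both higher, beside 5.91% of all genes called in either direction. The median difference was 0.27 for the members and -0.24 for all genes (0.29 for the members without Usp6nl, which has the symbol but encodes a Rab GTPase activating protein). With libraries scaled by median ratios the medians were 0.53 and -0.02. With annotated intron chains alone, 34 members were tested, neither Usp12 nor Usp25 was called, and Usp10 and Usp40 were called lower, beside 3.86% of all genes, with medians of -0.63 for the members and -0.58 for all genes. On the length-weighted scale the medians were -0.26 for the members and -0.50 for all genes, so the sign of the members' median depends on how a gene's transcripts are added up, and 5 members were called, beside 13.8% of all genes: Usp12 and Usp50 higher, and Usp21, Usp40 and Usp46 lower. In RNPs no member was called on the scale of summed FPKM, where limma called 0.689% of all genes. At the laxer threshold of an unadjusted p under 0.05 there were 7 members, and the share of all genes at that threshold was not counted. Libraries did not overlap for 8 members that were higher in elongating polysomes (18.2% of members, beside 15.9% of all genes) and for 7 that were lower (15.9%, beside 22.8%). In RNPs 5 members were higher without overlap (11.4%, beside 11.8%) and 3 were lower (6.82%, beside 7.38%).

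No member was called in the comparisons that use round spermatids. Round polysomes against pachytene polysomes had 0.157% of all genes called by limma and 4 members with an unadjusted p under 0.05. Elongating against round polysomes had 0.573% of genes called and 4 such members. In RNPs, 0% of genes were called for round against pachytene cells, with 2 such members, and 0.0818% for elongating against round cells, with 3 such members. The members are counted here at a laxer threshold than the genes, whose share at an unadjusted p under 0.05 was not counted. Without the round libraries numbered 2, elongating against pachytene polysomes, which do not contain those libraries but share the estimate of spread, had 7 members called, beside 16.1% of all genes. Of these Usp12, Usp25, Usp44 and Usp50 were higher, and Usp18, Usp30 and Usp39 were lower. In RNPs the same fit called 4 members, beside 6.61% of all genes, and these were again Usp12, Usp25, Usp44 and Usp50, all higher.

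On the length-weighted scale, chosen after the data were seen, Usp12 lay above its paralog Usp46 in all elongating libraries and below it in all pachytene libraries. Usp46 had 6.86, 6.44 and 5.99 in elongating polysomes, against 15.6, 17.8 and 18.1 in pachytene polysomes, and Usp12 had 51.8, 54.3 and 56.2 in elongating polysomes, against 11.2, 8.88 and 8.15 in pachytene polysomes. In summed FPKM the order held less widely. Usp46 then had 10.5, 18.3 and 7.17 FPKM in elongating polysomes, against 15.7, 18.2 and 18.4 FPKM in pachytene polysomes, and these groups overlapped. In RNPs it had 5.14, 5.13 and 16.1 FPKM in elongating spermatids, against 6.67, 6.46 and 3.83 FPKM in pachytene spermatocytes, where Usp12 was the higher gene in 2 of 3 libraries. A ratio within a library is free of its scaling, so the paralogs were also compared as log2 ratios, for 4 pairs chosen after the values were seen. Usp12 over Usp46 was 3.05 ± 0.16 in elongating polysomes and -0.87 ± 0.35 in pachytene polysomes (SD, n = 3 each), a difference of 3.92 with an exact permutation p of 0.1, two-sided. In RNPs it was 3.29 ± 0.39 in elongating spermatids and -0.58 ± 0.22 in pachytene spermatocytes (SD, n = 3 each), a difference of 3.86 with the same exact p. With 3 libraries against 3 this is the smallest p the test allows, so it cannot pass 0.05. The difference of Usp46 alone was -0.59 on the log2 scale of summed FPKM, where it was not called (limma adjusted p = 0.473), and -1.29 in length-weighted FPKM, where it was called (limma adjusted p = 0.0462). Both enzymes are activated by Wdr48 and Wdr20 proteins. None of the 4 tested WD-repeat activators (Wdr48, Wdr20a, Wdr20b and Dmwd) was called, and Wdr48 had 328, 142 and 149 FPKM in elongating polysomes, against 223, 234 and 162 FPKM in pachytene polysomes.

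Usp25 over Usp28 was 4.26 ± 0.21 in elongating polysomes and 0.44 ± 1.50 in pachytene polysomes (SD, n = 3 each), a difference of 3.82 with an exact p of 0.1. The ratio in RNPs was 3.84 ± 0.28 in elongating spermatids and 0.12 ± 2.37 in pachytene spermatocytes (SD, n = 3 each), a difference of 3.71 with an exact p of 0.1. Usp28, a nuclear deubiquitinase of the DNA damage response, had 4.95, 14.7 and 10.4 length-weighted FPKM in pachytene polysomes and 3.66, 18.7 and 1.47 in pachytene RNPs. Its higher values were those of the libraries with a high Sertoli marker sum, whose part in the ratio was not tested. The 2 other pairs were Usp16 over Usp45 and Usp4 over Usp15. The first rose by 2.22 in polysomes (exact p = 0.1) and 0.93 in RNPs (exact p = 0.4), and Usp4 over Usp15 fell by 0.59 in polysomes and by 0.69 in RNPs (exact p = 0.1 for each). All 8 comparisons have an exact p of at least 0.1, and adjustment for their number cannot lower it.

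**Figure D2:**
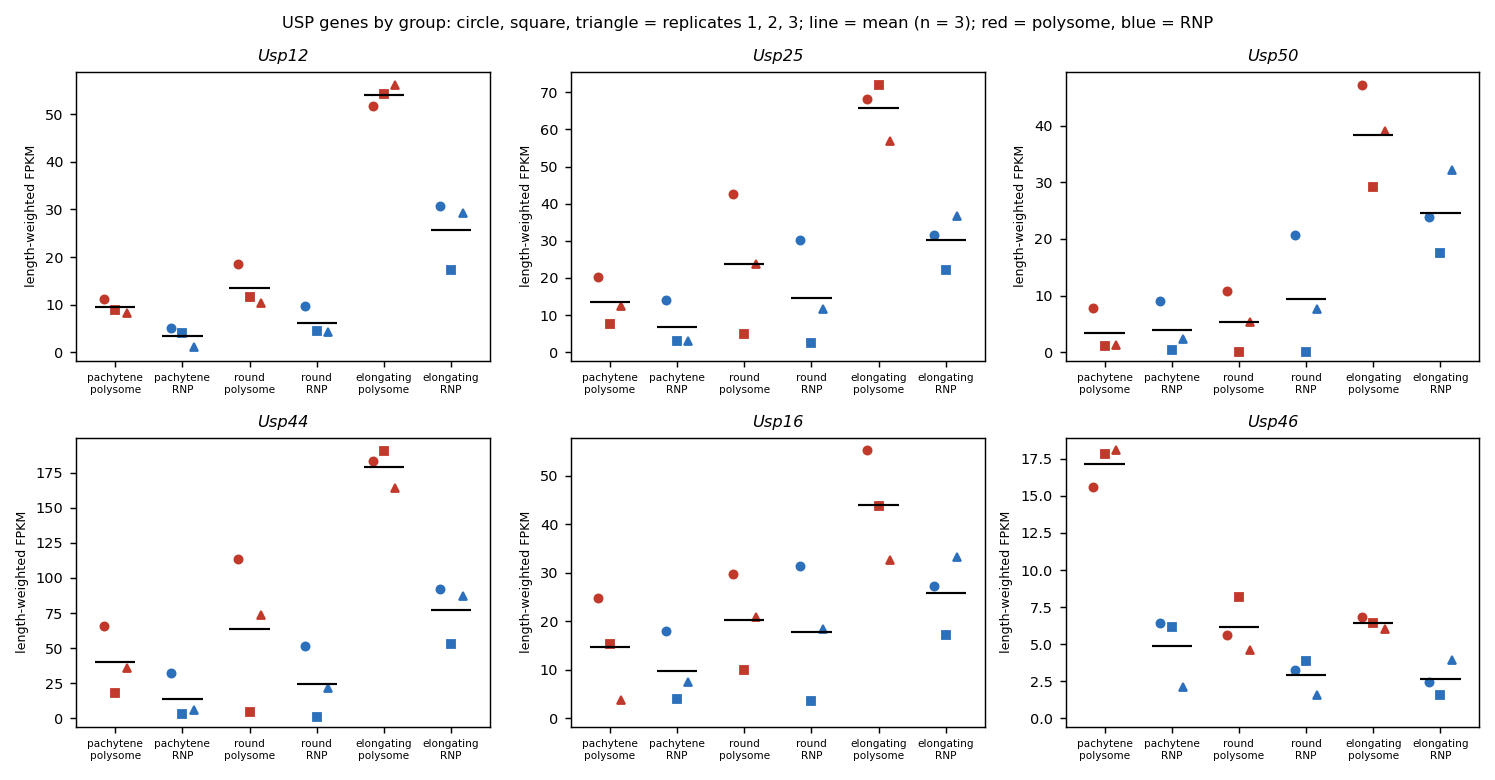
Length-weighted FPKM of 6 USP genes in each library by group (red, polysome; blue, RNP; circle, square and triangle, replicates 1, 2 and 3; line, mean of 3). Usp12, Usp25, Usp44, Usp50 and Usp16 are highest in elongating polysomes, Usp46 is highest in pachytene polysomes at 15.6 to 18.1, and the square, replicate 2, is lowest for Usp25, Usp50, Usp44 and Usp16 in round spermatids.

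Histone deubiquitinases were the largest role group, with 12 members of which 9 were tested. Usp12 was the only one called in any comparison, between elongating and pachytene polysomes, where 5.91% of all genes were called. The median difference of the group there was 0.22, beside -0.24 for all genes. Usp44, which removes ubiquitin from H2B and restrains the anaphase-promoting complex, had 208, 191 and 163 FPKM in elongating polysomes, against 65.2, 17.5 and 35.5 FPKM in pachytene polysomes. These groups did not overlap, but the fit over all libraries did not call the difference of 2.40 (SE 1.03, limma adjusted p = 0.159). In elongating RNPs Usp44 had 88.2, 59.8 and 92.4 FPKM, against 31.5, 3.82 and 6.71 FPKM in pachytene RNPs (log2 difference 2.90, limma adjusted p = 0.184). Its round libraries were widely spread, with 110.4, 4.75 and 72.6 FPKM in polysomes, and without the round libraries numbered 2 the adjusted p was 0.0209 in polysomes and 0.0221 in RNPs. No assembled chain matched the 4-exon annotated Usp44 transcript, and the most frequent chain had 6 introns and held 42.3% of its FPKM.

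Usp16, an H2A deubiquitinase, had 251, 182 and 112 FPKM in elongating polysomes, against 104, 19.6 and 34.1 FPKM in pachytene polysomes. The lowest elongating value lay just above the highest pachytene value, and the difference of 2.03 was not called (limma adjusted p = 0.152). Usp7 had 150, 209 and 148 FPKM in elongating polysomes, against 99.1, 119.6 and 104 FPKM in pachytene polysomes, also without overlap and not called. Usp22, the deubiquitinase of the SAGA complex, had 4.74, 2.31 and 3.79 FPKM in elongating polysomes, against 2.51, 42.7 and 36.2 FPKM in pachytene polysomes, and its high values were those of the libraries with the most Sertoli marker RNA. Usp3, Usp21 and Usp36 averaged 8.37, 6.99 and 5.06 FPKM over the 18 libraries and were not called on this scale. Of the 8 histone ubiquitin ligases listed as partners, Rnf2, the H2A ligase of Polycomb complexes, fell by 2.34 between pachytene and elongating polysomes (limma adjusted p = 0.0435), with 6.50, 6.41 and 6.01 FPKM in elongating polysomes, against 20.6, 42.4 and 53.3 FPKM in pachytene polysomes. Rnf2 was the only gene called among the 36 tested of 39 partner genes, beside 5.91% of all genes in this comparison. The Sertoli marker sum rose in the same order in the 3 pachytene polysome libraries, with 325, 1328 and 1757 FPKM. Its part in the Rnf2 difference was not tested.

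Usp50, which resembles Usp8 in its catalytic part, had 69.2, 42.5 and 54.6 FPKM in elongating polysomes, against 12.98, 3.88 and 3.96 FPKM in pachytene polysomes. It had 34.8, 24.9 and 45.3 FPKM in elongating RNPs, against 16.3, 1.36 and 3.84 FPKM in pachytene RNPs. Neither pair of groups overlapped, and neither difference was called (2.99 in polysomes, SE 1.15, limma adjusted p = 0.124; 2.59 in RNPs, limma adjusted p = 0.286). Usp50 was listed at 0 in both round libraries numbered 2, and was called in polysomes under 6 of 13 settings. Its gene lies on the strand opposite to Usp8 and the annotated spans overlap by 50202 bases. The library kit keeps the strand, and only transcripts that share a junction on the annotated strand were counted. Usp8 had 259, 195 and 183 FPKM in elongating polysomes, against 342, 94.0 and 167 FPKM in pachytene polysomes. The part of the overlap in the Usp50 values was not tested.

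Usp2, a deubiquitinase linked to the circadian clock and to membrane receptors, was assembled in 2 forms that start in different exons. The long form (transcripts Usp2-201 and Usp2-203, coding length 1857 nt) contains the exon chr9:43883449-43884305, and the short form (Usp2-202, coding length 1188 nt) starts in the exon chr9:43893003-43893418, both on the plus strand of mm9. Both are spliced to the exon chr9:43897215-43897265, and the forms can be told apart at this junction. Coding lengths are those of the annotated transcripts. Each form counts every assembled chain with a junction of its exon, annotated or not. The last 15 bases of the exon of each form are in capitals and the bases after them belong to the shared exon.

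Usp2-201: GGGCGAGACACCATGaattcaaagagtgcc
Usp2-202: CTCAACAAAGCCAAGaattcaaagagtgcc

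The long form had 112, 70.0 and 80.0 FPKM in elongating polysomes, against 23.4, 0 and 6.19 FPKM in pachytene polysomes. The short form had 0, 15.5 and 16.3 FPKM in elongating polysomes, against 53.1, 63.2 and 33.3 FPKM in pachytene polysomes. Neither form overlapped between the groups. The long form thus held 100%, 81.9% and 83.1% of the Usp2 FPKM in elongating polysomes, against 30.5%, 0% and 15.7% in pachytene polysomes. It held 100%, 100% and 85.1% in elongating RNPs, against 52.2%, 13.99% and 48.8% in pachytene RNPs. In round spermatids it held 56.6%, 17.6% and 27.9% in polysomes and 75.9%, 20.9% and 65.7% in RNPs, and in round polysome library 3 another 28.8 FPKM belonged to transcripts with neither exon. Shares of forms were not tested, since intron chains match only in part between separately assembled libraries. In pachytene polysome libraries 2 and 3 the short form was an unannotated chain of 10 introns, and Usp2-202, with 11 introns, was at 0. The long form included an unannotated chain of 12 introns, at 61.0 FPKM in elongating polysome library 3. The annotated coding lengths need not apply to these chains. The Usp2 gene as a whole was not called between elongating and pachytene polysomes (log2 difference 0.74, limma adjusted p = 0.488), although the summed values did not overlap. The Sertoli marker sum was highest in pachytene polysome libraries 2 and 3, pachytene RNP library 2 and the round libraries numbered 2, where the short form held 79.1% to 100% of the FPKM, and its part in the shares was not tested. In pachytene polysome library 1, with 325 FPKM of these markers, the short form held 69.5%. The 12 elongating spermatid markers summed to 1798, 169 and 619 FPKM in pachytene polysome libraries 1 to 3. In pachytene RNP libraries 1 to 3 they summed to 3272, 156 and 930 FPKM, and their part in the shares was not tested.

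**Figure D3:**
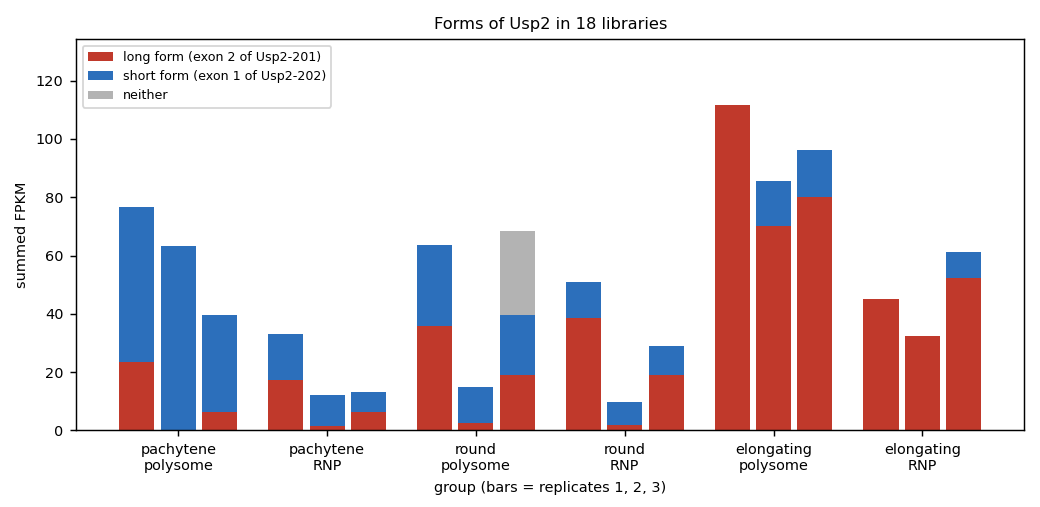
Summed FPKM of the long, the short and other forms of Usp2 in each library, as stacked bars by group (bars are replicates 1, 2 and 3). The long form fills 81.9% to 100% of the elongating bars, and the short form fills 69.5% to 100% of the pachytene polysome bars.

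The forms of the other abundant members varied less or could not be followed. Usp1 was assembled as annotated, with 98.6% of its FPKM in annotated chains, and Usp1-002 held between 16.9% and 46.5% of it. Usp4-201 held 98.6% of the FPKM of Usp4, Usp12-001 held 91.3% of Usp12 and Usp47-203 held 85.2% of Usp47. By contrast, no assembled chain of Usp34 equalled an annotated one, and annotated chains held 2.06% of Usp32, 2.42% of Usp16, 5.48% of Usp8 and 10.03% of Usp7.

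In the comparison of fractions, the median of the USP mRNAs lay near that of all genes. The polysome over RNP difference had a median of 1.02 for the 44 members and 1.01 for all genes in pachytene cells. It was 0.73 for the members and 0.65 for all genes in round spermatids, and 0.91 and 0.71 in elongating spermatids. After scaling by median ratios the members' medians were 0.11, 0.02 and 0.07, beside 0.18, 0.07 and 0.02 for all genes, and the number of members above 0 fell to 24, 22 and 22, against 38, 35 and 33 without scaling. Usp30 was called in pachytene spermatocytes, beside 6.34% of all genes, and Usp42 in elongating spermatids, beside 1.6% of all genes. No member was called in round spermatids, beside 0.334% of genes called by limma. At the laxer threshold of an unadjusted p under 0.05, members numbered 11 there and 5 after scaling by median ratios. The share of all genes at that threshold was not counted. Libraries did not overlap for 15 members that were higher in pachytene polysomes (34.1% of members, beside 29.5% of all genes) and for no member that was lower, beside 0.621%. In round spermatids 12 members were higher without overlap (27.3%, beside 14.4%), and none was lower, beside 0.743%. In elongating spermatids 22 were higher (50%, beside 36.9%), and Usp6nl was the only one lower, beside 1.78%, with 2.75, 2.42 and 3.99 FPKM in polysomes, against 10.7, 5.61 and 60.7 FPKM in RNPs.

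Usp30, which removes ubiquitin from the mitochondrial outer membrane and limits mitophagy, had 13.3, 11.7 and 32.8 FPKM in pachytene polysomes, against 7.01, 4.89 and 2.87 FPKM in pachytene RNPs. The difference was 1.69 (SE 0.49, limma adjusted p = 0.0495). With median-ratio scaling it was 0.66 (limma adjusted p = 0.802). Leaving out a library in turn gave 1.25 to 1.96, and Usp30 stayed below an adjusted p of 0.05 only without pachytene RNP library 1 (0.0339) and was at 0.0724 to 0.203 without each of the other 5. Usp42, which acts on p53 and is known for its high level in testis, had 47.5, 70.5 and 29.1 FPKM in elongating polysomes, against 10.7, 9.49 and 16.1 FPKM in elongating RNPs. The difference was 1.88 (SE 0.41, limma adjusted p = 0.0338), and 1.02 with median-ratio scaling (limma adjusted p = 0.359). Usp42 kept its call without elongating polysome library 3 (adjusted p = 0.0399) or elongating RNP library 3 (adjusted p = 0.0426) and lost it without each of the other 4 (adjusted p 0.103 to 0.17). Annotated chains, which held 25.4% of the FPKM of Usp42, gave -0.22 (limma adjusted p = 1).

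The difference between fractions did not change detectably with the stage for any member. Of all genes, 0.0136% were called for round against pachytene cells, 0.00682% for elongating against round cells and 0.0273% for elongating against pachytene cells. At the laxer threshold of an unadjusted p under 0.05, for which no share of all genes was counted, members numbered 0, 1 and 2. The lowest of these p-values were those of Usp54 and Usp10 between elongating and pachytene cells. Usp54, long held to lack protease activity, had 14.8, 16.2 and 12.7 FPKM in elongating RNPs, against 5.69, 6.20 and 0 FPKM in pachytene RNPs, and 3.59, 6.29 and 13.3 FPKM in elongating polysomes, against 7.44, 12.7 and 15.7 FPKM in pachytene polysomes. Usp10, a partner of the stress granule protein G3BP1, had 2.31, 0 and 4.16 FPKM in elongating RNPs, against 32.2, 6.58 and 7.98 FPKM in pachytene RNPs. Of the 32.2 FPKM, 26.6 belonged to an unannotated chain of 2 introns. The protein-coding gene Gm20388 overlaps Usp10 on the same strand over 46720 bases. A transcript that shares junctions with both genes cannot be given to either with certainty. In polysomes Usp10 had 6.83, 12.9 and 7.46 FPKM in elongating spermatids, against 4.42, 7.44 and 8.90 FPKM in pachytene spermatocytes. In length-weighted FPKM the polysome values were 1.26, 1.59 and 0.67 in elongating spermatids, against 3.13, 6.45 and 7.78 in pachytene spermatocytes.

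**Figure D4:**
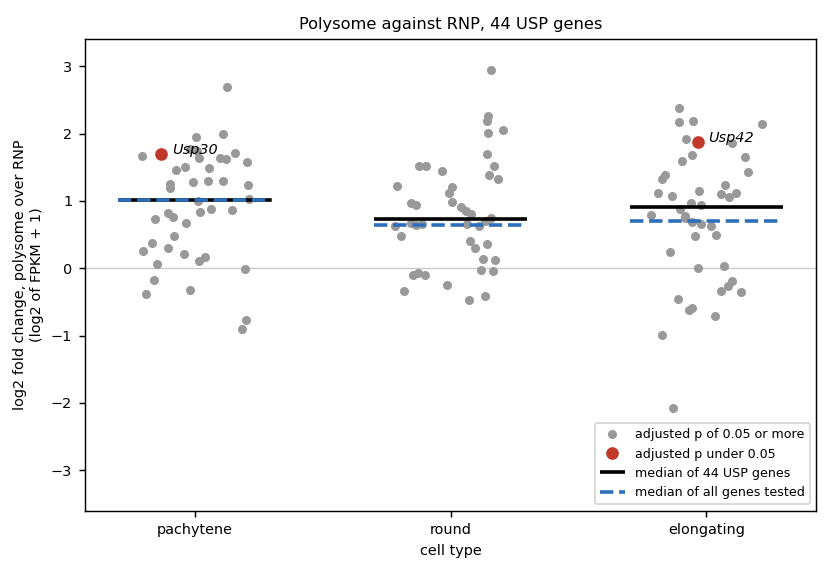
Log2 difference of polysome over RNP for the 44 USP genes tested in each cell type (points), with the median of the members (solid line) and of all 14665 genes (dashed line). Most points lie above 0, as does the median of all genes, and Usp30 in pachytene spermatocytes and Usp42 in elongating spermatids are the members called.

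In several members 1 library of a group stood far from the others. Usp22 had 1.31, 54.1 and 4.44 length-weighted FPKM in round polysomes, Usp26 had 2.56, 42.0 and 10.6, and Usp28 had 4.76, 27.9 and 6.19. In all 3 genes the second value, of library 2, was far above the others. Usp26, an X-linked gene known for expression in the testis, had 2.82, 2.27 and 3.52 in elongating RNPs, against 0.64, 33.0 and 0.24 in pachytene RNPs, where library 2 again stood out. Usp9x, an X-linked deubiquitinase of wide expression, had 9.13, 58.7 and 8.37 in round RNPs, and Usp5, which takes apart free ubiquitin chains, had 5.08, 31.0 and 6.92 there. The Sertoli marker sum was 50.7, 1367 and 99.2 FPKM in the same 3 libraries. Usp25, Usp44, Usp50 and Usp16 had the opposite order in round spermatids, with library 2 the lowest in both fractions except for Usp25 in RNPs, where it lay between the others on the scale of summed FPKM. The 8 round spermatid markers summed to 1118, 91.8 and 920 FPKM in the round polysome libraries and to 550, 49.3 and 358 FPKM in the round RNP libraries, so library 2 was the lowest here too. The 12 elongating spermatid markers summed to 2394, 219 and 1771 FPKM in round polysomes and to 5707, 239 and 3386 FPKM in round RNPs. The 6 spermatogonium markers stood out upward, with 50.4, 334 and 104 FPKM in round polysomes and 24.5, 119 and 43.2 FPKM in round RNPs. The part of Sertoli cell, spermatogonium or spermatid RNA in the values of these genes was not tested.

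**Figure D5:**
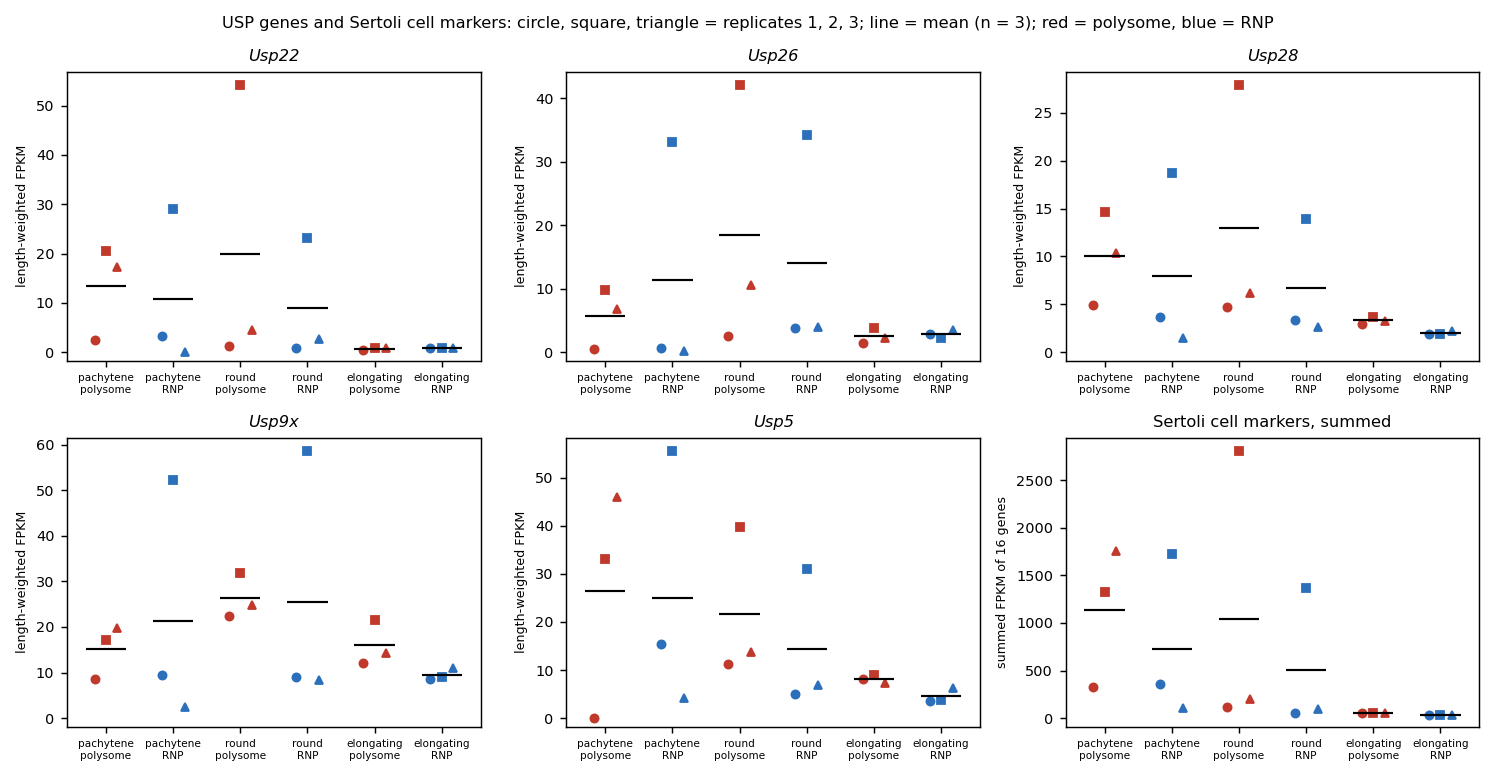
Length-weighted FPKM of Usp22, Usp26, Usp28, Usp9x and Usp5, and the summed FPKM of the Sertoli cell markers, in each library by group (symbols and colours as for the plot of Usp12 and other genes by group; line, mean of 3). The squares, replicate 2, stand above the other replicates in round spermatids and in pachytene RNPs, as does the marker sum at 2804, 1367 and 1719, whereas the elongating values lie close together.

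Members of the remaining roles were not called in any comparison, apart from Usp30. Of the enzymes of the proteasome and free chains, Usp14, which sits on the proteasome, had 8.11, 7.30 and 6.91 FPKM in elongating polysomes, against 8.31, 14.5 and 16.3 FPKM in pachytene polysomes, without overlap. The group of endosome, membrane and cytoskeleton (8 members) had a median difference of 0.30 between elongating and pachytene polysomes, with 6 of 8 above 0. The DUSP-UBL paralogs Usp4, Usp11 and Usp15 had a median of 0.53, with all 3 above 0, and Usp15 had 126, 164 and 157 FPKM in elongating polysomes, against 102.8, 75.8 and 55.0 FPKM in pachytene polysomes. The cell cycle and DNA damage group had 6 tested members with a median of 0.32, and Usp1 had 236, 243 and 213 FPKM in elongating polysomes, against 264, 139 and 184 FPKM in pachytene polysomes. The 5 members listed as lacking deubiquitinase activity or as acting on another modifier all lay below 0, with a median of -0.77. They were Usp18, Usp39, Usp53, Usp54 and Usp6nl, and the activity of these proteins was not assessed. Among them Usp39, a component of the splicing machinery, had 14.96, 18.5 and 13.6 FPKM in elongating polysomes, against 20.2, 58.7 and 57.8 FPKM in pachytene polysomes (log2 difference -1.35, limma adjusted p = 0.105). Usp18, which removes the ubiquitin-like protein ISG15, was listed at 0 in all elongating polysome libraries and had 2.28, 1.26 and 7.03 FPKM in pachytene polysomes (log2 difference -1.96, limma adjusted p = 0.0598). The Sertoli marker sum was 325, 1328 and 1757 FPKM in the 3 pachytene polysome libraries. Its part in the differences of Usp14, Usp39 and Usp18 was not tested. The sex-linked members tested were Usp9x, Usp11 and Usp26 on X and Usp9y on Y, and their median was -0.02. Usp9x and Usp9y are similar in sequence, so reads could be divided between them in a way the FPKM do not show.

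The other deubiquitinase families and related proteases gave 42 tested of 47 listed genes. Their median polysome over RNP difference was 1.16 in elongating spermatids and 1.28 in pachytene spermatocytes, and their median difference between elongating and pachytene polysomes was -0.04. In elongating spermatids 3 were called, beside 1.6% of all genes, all higher in polysomes: Uchl5, Yod1 and Mpnd. In pachytene spermatocytes 4 were called, beside 6.34% of all genes, all higher in polysomes: Uchl5, Josd1, Senp6 and Ufsp2. Between elongating and pachytene polysomes Otub2 and Yod1 rose, and Stambp and Ufsp2 fell, beside 5.91% of all genes called. Yod1, an OTU enzyme of endoplasmic reticulum quality control, had 38.7, 38.0 and 33.6 FPKM in elongating polysomes, against 8.53, 5.17 and 3.53 FPKM in pachytene polysomes (log2 difference 2.55, limma adjusted p = 0.00952), and also exceeded round polysomes by 2.87 (limma adjusted p = 0.0185). Otub2, an OTU enzyme, had 435, 255 and 175 FPKM in elongating polysomes, against 30.7, 5.83 and 12.4 FPKM in pachytene polysomes (log2 difference 4.24, limma adjusted p = 0.0218).

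No value was obtained for 6 members: Usp13, Usp17l5, Usp27x, Usp29, Usp49 and Usp51. Usp43 was assembled in round polysome library 3 alone, at 3.61 FPKM, and was not tested.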

How the data were processed

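Strand-specific RNA-seq libraries of polysome and RNP fractions were read as 18 deposited transcript assemblies. According to the submitters' processing notes and the methods, FASTX-Toolkit, TopHat with build mm9 and Cufflinks were used by the authors, with each library assembled alone. Tool versions are not given in the sources used here. Each transcript carries an FPKM in the deposited files, with no read counts, so the depth of a library is unknown and no counting interval is given. Libraries held 26773 to 109864 assembled transcripts (24.8% to 61.8% spliced).

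A gene's FPKM was the sum over assembled transcripts that share a splice junction on its strand with a GENCODE vM1 transcript, and a gene with none was set to 0. Of 1114 junctions of USP transcripts, 99.1% had a splice dinucleotide pair of a known type in the mm9 sequence. Usp35, which is not protein-coding in this annotation, was not a member. The test was limma 3.58.1 (R 4.3.3, trend) on log2(FPKM + 1), which understates changes of low genes, over genes that reached an FPKM of 1 in 3 or more libraries. All 18 libraries entered 1 fit with the 6 groups, and 12 comparisons were made, each two-sided with Benjamini-Hochberg adjustment and a threshold of 0.05. The fit was tested on simulated data. Tables were made with Python 3.11.15, numpy 2.4.6 and pandas 2.3.3. Paralog log2 ratios used length-weighted FPKM with a pseudocount of 0.1, and exact permutation tests over libraries.

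Alternatives were median-ratio scaling (factors from 7037 genes), quantile normalization, a pseudocount of 0.1, no filter, an FPKM minimum of 5, the compared libraries alone, annotated intron chains alone, a replicate block, and leaving out libraries. The length-weighted FPKM, alone and with scaling, and the scaling without the round libraries numbered 2 were added after the data were seen. Library numbers were treated as pairing where every same-numbered pair deviated together with an r above 0.1. This held for the fractions of round spermatids (lowest r 0.20) and for round against pachytene RNPs (lowest r 0.11), from the data and not from the labels, and no member was called there with or without the block.

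The members and the lists of roles, partners, markers and other families were chosen with earlier results of these data known. Values in every library were given for members called in any comparison and for abundant members. Others given in full (among them Usp10, Usp18, Usp22, Usp26, Usp28, Usp46, Usp50 and Usp54) were chosen after their values were seen. Cys box sequences were read from the coding transcripts of the annotation, and the Usp2 exon sequences from the mm9 genome at the coordinates of the annotation.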

Additional observations from a re-analysis of the deposited data

Results flagged for a closer look

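Of the 6 members without a value, 3 had FPKM in single-exon fragments, which were left out of all comparisons since they share no junction with the gene. Fragments within Usp49 were assembled in 15 libraries and reached 79.5 FPKM in round polysome library 3, the library with the most assembled transcripts. Usp49 overlaps Med20 on the same strand over 53377 bases, so a fragment there cannot be given to either gene. Fragments within Usp27x were assembled in 11 libraries, with the highest value, 16.49 FPKM, in pachytene polysome library 2. Fragments within Usp51 were assembled in 9 libraries and reached 14.24 FPKM in elongating polysome library 2. Usp13, Usp17l5 and Usp29 had no fragment.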

How the results depend on the processing

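Directions and calls are given for the 12 comparisons of USP genes and for the 4 called genes. Of the values for comparisons, 186 stayed within 1.5 times of the count given and 54 did not. Of the values for single genes, 35 kept the call, 37 kept the direction and lost it, and 2 reversed, both with annotated intron chains alone: Usp42 at -0.22 between elongating fractions and Usp25 at -2.40 between elongating and pachytene polysomes.

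For polysomes over RNPs of pachytene cells, where Usp30 was called, several settings gave 0 members. These were median-ratio scaling (beside 0.184% of all genes), quantile normalization (0.143%), a pseudocount of 0.1 (6.78%), no filter (5.6%) and the compared libraries alone (0.961%). The others were scaling of length-weighted FPKM (0.153%) and scaling without the round libraries numbered 2 (0.433%). An FPKM minimum of 5 gave 2 (beside 8.18% of all genes), leaving out the round libraries numbered 2 gave 11 (18.1%) and length-weighted FPKM gave 16 (33.5%). For the elongating fractions, where Usp42 was called, 0 were called with median-ratio scaling (beside 0.464% of all genes), quantile normalization (0.266%) or annotated chains (0.384%). The count was also 0 with length-weighted FPKM (4.69%), the same scaled (0.329%) and scaling without the round libraries numbered 2 (0.594%). The compared libraries alone gave 9 (15.9% of all genes) and leaving out the round libraries numbered 2 gave 3 (5.16%).

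Between elongating and pachytene polysomes, with 2 calls, quantile normalization gave 0 (beside 3.5% of all genes) and the compared libraries alone 4 (15.2%). Leaving out the round libraries numbered 2 gave 7 (4 higher and 3 lower, beside 16.1%). Length-weighted FPKM gave 5 (13.8%), the same scaled 4 (9.96%), and scaling without the round libraries numbered 2 gave 7 (6 higher and 1 lower, beside 13.6%). Annotated chains also gave 2 (3.86%), but both were lower. In the RNPs of these cells, with 0 calls, leaving out the round libraries numbered 2 gave 4 (6.61% of all genes), length-weighted FPKM 1 (1.61%), the same scaled 1 (8.39%), and scaling without those libraries 7 (10.8%). Elongating against round cells had 1 call with scaled length-weighted FPKM in RNPs (0.965% of all genes), and in polysomes 1 with length-weighted FPKM (0.766%) and 1 with the same scaled (1%). Round against pachytene polysomes had 1 call with annotated chains (0.826%). The cause of these shifts was not tested.

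The labels do not say that equal library numbers mark a shared preparation. With the replicate block, 5 members were called between pachytene fractions (beside 12% of all genes), 3 between elongating and pachytene RNPs (5.43%), 2 between elongating and round polysomes (4.31%) and 6 between elongating and pachytene polysomes (5 higher, 1 lower; 13.1%). A block within the cell type gave 10 between pachytene fractions (20.1%) and 5 between elongating fractions (7.31%).

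Leaving out each compared library in turn gave 0 to 3 calls for pachytene fractions, 0 to 2 for elongating fractions, 0 to 2 for elongating against pachytene polysomes (1 higher and 1 lower without pachytene polysome library 1) and 0 to 0 for the other comparisons. The 3 calls came without pachytene RNP library 1, where 1542 of 14640 genes were called higher and 35 lower. The 2 calls for elongating fractions came without elongating RNP library 3, beside 155 of 14610 genes higher and 32 lower. The 2 for elongating against pachytene polysomes came beside 455 of 14583 genes higher and 352 lower. Differences then ranged over 1.25 to 1.96 for Usp30, 1.58 to 2.20 for Usp42, 2.19 to 2.34 for Usp12 and 2.79 to 3.42 for Usp25.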
